A study of Caenorhabditis elegans with 4 samples.

Results

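The cest genes of Caenorhabditis elegans encode carboxylesterases, and their transcripts were followed in first-stage (L1) larvae that carry a mutation in lsm-8. Members were chosen by name: every row of the count table whose WormBase gene name is cest followed by a number. This gave 32 genes of the 20392 in the table, and all 32 passed the filter on low counts that left 16771 genes for testing. No measured value entered that rule, but the family was selected on earlier results of this same contrast, which were known when it was taken up. The counts of members called are therefore a description, and nothing about the family as a whole is read from them.

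The mutant group held 2 libraries of larvae labelled lsm-8-/- (strain GW1125), and the control group held 2 libraries of wild-type Bristol larvae (GW1 / N2). The allele, xe17, carries an mCherry marker driven from the myo2 promoter of pharyngeal muscle, and the strain is maintained over nT1[qIs51], a balancer of chromosomes IV and V with a green marker. Both genotypes hatched without food for 16 h, were sorted for larvae of L1 size with a non-green pharynx, and were then fed for 2.5 h before total RNA was taken. Nothing in the labels ties the libraries of a group to separate cultures. Each p-value therefore sets the difference between genotypes against the spread between these libraries, which may be technical. The spread used for a gene is not its own alone, since the test shares information on spread over all genes tested. Whole larvae were sequenced, so fewer cells of a type and less RNA per cell cannot be told apart.

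Carboxylesterases are enzymes of the alpha/beta hydrolase fold that use a catalytic serine to cut ester bonds, and animals use them on lipids, drugs and other foreign compounds. In C. elegans several CEST proteins also work in building: they join small acids and other blocks to ascarosides, the worm's pheromone lipids, and to glucosides, in a process that depends on gut granules, the lysosome-related organelles of the intestine. Members tied to such assembly include cest-1.1, cest-2.2, cest-3, cest-4, cest-8 and cest-9.2. No role is given for members whose function is not established here.

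Levels are given as CPM, counts scaled to a common library size with TMM factors, and fold changes are lsm-8 over wild type. A gene was called at an adjusted p under 0.05 in edgeR's quasi-likelihood test over all 16771 genes. The targeted transcript, lsm-8, stood at 3.25 and 3.73 CPM in the lsm-8 libraries, against 15.4 and 15.9 CPM in the wild-type libraries. Library totals were 101230177 and 90749329 counts in lsm-8, and 54419838 and 50755251 in wild type. A count of 0 would allow up to 0.0323 CPM in lsm-8 and up to 0.06 CPM in wild type, taking 3 counts per library as the floor and covering counting error only.

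Most cest transcripts that differed were less abundant in the mutant. Of the 32 members, 15 fell, 4 rose and 13 were not called. Over all genes tested 28.2% were called, 14.8% lower and 13.5% higher. The split of all calls depended on scaling: 47.7% of them were higher with TMM, against 60.5% when only library totals were used. The median log2 fold change of the members was -0.46 (interquartile range -0.76 to 0.00), beside -0.01 (-0.21 to 0.21) for all genes tested. Together the members made up 413 and 436 CPM in lsm-8 larvae, against 535 and 508 CPM in wild-type larvae. A value below 0 was found for 24 of the 32, beside 50.9% of all genes tested. The values of the genotypes did not overlap for 23 members (lsm-8 below for 18, above for 5), a pattern seen in 62.8% of all genes tested.

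**Figure D1:**
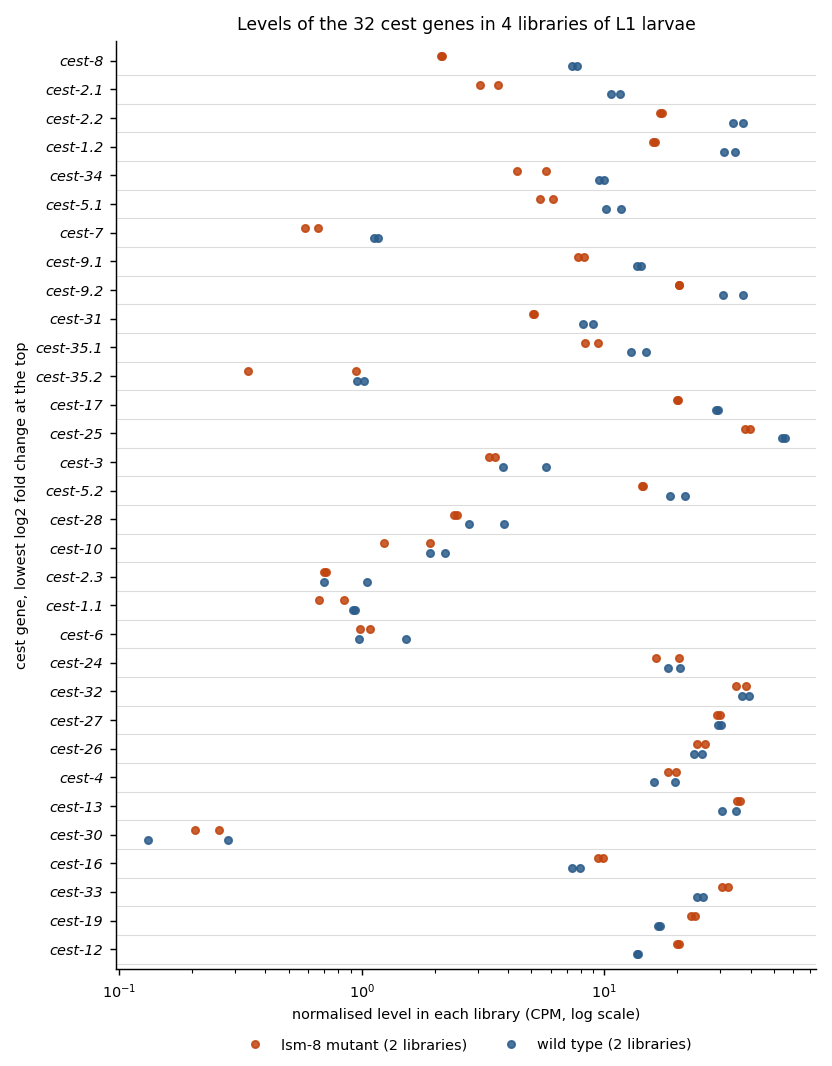
Normalised level (CPM, log scale) of each cest gene in the 2 lsm-8 and the 2 wild-type libraries, with genes ordered by log2 fold change and 1 point per library. From cest-8 at the top down to cest-35.1, both lsm-8 points lie left of both wild-type points, and for the 4 genes at the bottom they lie to the right.

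Among the members linked to modular assembly, cest-8, needed to attach groups to ascarosides, fell most. It had 2.15 and 2.11 CPM in the lsm-8 libraries, against 7.36 and 7.72 CPM in the wild-type libraries. Both mutant values lay far below both controls, a 3.54-fold lower level (log2 fold change -1.82, SE 0.13, edgeR adjusted p = 4.64e-09). The gene cest-2.2, also linked to modular assembly, had 16.99 and 17.2 CPM in lsm-8 larvae and 37.4 and 33.8 CPM in wild-type larvae. The mutant libraries were close to each other and 2.08-fold lower (log2 fold change -1.06, SE 0.08, edgeR adjusted p = 4.24e-09). For cest-9.2, needed to attach groups to ascarosides, the values were 20.2 and 20.3 CPM in lsm-8 larvae and 37.1 and 30.8 CPM in wild-type larvae. It was one of the more abundant members in wild type and fell 1.68-fold (log2 fold change -0.75, SE 0.08, edgeR adjusted p = 1.64e-06).

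The other members of that kind gave weaker differences or none that passed. The gene cest-3, which like cest-8 acts on ascarosides, had 3.35 and 3.52 CPM in lsm-8 larvae, against 5.76 and 3.82 CPM in wild-type larvae. The wild-type libraries lay further apart than the genotype means, and its fall (log2 fold change -0.48, SE 0.16, edgeR adjusted p = 0.0360) rested on wild-type replicate 1: without that library the log2 fold change was -0.15 and the adjusted p was 0.595. The call was also lost in 5 other alternatives, with an adjusted p up to 0.0852. For cest-1.1 levels were near the bottom of the family, at 0.849 and 0.668 CPM in lsm-8 larvae and 0.920 and 0.939 CPM in wild-type larvae. Its log2 fold change of -0.29 (SE 0.26) was not called (edgeR adjusted p = 0.462). The estimate was close to its SE in size, so a difference of that size was not resolved. The gene cest-4 had 18.2 and 19.7 CPM in lsm-8 larvae and 19.5 and 15.9 CPM in wild-type larvae. The genotypes overlapped, and the log2 fold change was 0.10 (SE 0.09, edgeR adjusted p = 0.488).

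The remaining large falls came from cest-2.1, cest-1.2, cest-34 and cest-5.1. The gene cest-2.1, which lies directly beside cest-2.2, had 3.64 and 3.07 CPM in lsm-8 larvae, against 11.6 and 10.7 CPM in wild-type larvae. It fell 3.31-fold (log2 fold change -1.73, SE 0.12, edgeR adjusted p = 2.88e-09), and with cest-8, cest-2.2 and cest-1.2 it was 1 of 4 members that fell at least 2-fold. Such a fall was found for 1.70% of all genes tested. The falls of cest-2.2 and cest-1.2 lay near that cutoff and were under 2-fold in some alternatives, with log2 fold changes up to -0.98 and -0.95. The gene cest-1.2 had 15.8 and 16.2 CPM in lsm-8 larvae and 34.4 and 31.0 CPM in wild-type larvae. Both mutant values lay below both controls, and it fell by 1.03 on the log2 scale (SE 0.08, edgeR adjusted p = 8.13e-09). For cest-34 the values were 4.35 and 5.74 CPM in lsm-8 larvae and 9.93 and 9.45 CPM in wild-type larvae. For cest-5.1 they were 5.43 and 6.11 CPM in lsm-8 larvae and 11.7 and 10.1 CPM in wild-type larvae. Neither gene overlapped between genotypes, and they fell by 0.94 (SE 0.13, edgeR adjusted p = 1.50e-05) and 0.92 (SE 0.11, edgeR adjusted p = 3.93e-06) on the log2 scale.

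The other called falls ranged from -0.88 to -0.48 on the log2 scale. They were those of cest-7, cest-9.1, cest-31, cest-35.1, cest-17, cest-25 and cest-5.2, besides cest-9.2 and cest-3. The gene cest-9.1 stood at 8.27 and 7.77 CPM in lsm-8 larvae and at 14.2 and 13.6 CPM in wild-type larvae. The gene cest-17 stood at 19.9 and 20.03 CPM in lsm-8 larvae and at 28.9 and 29.3 CPM in wild-type larvae. Replicates of cest-17 differed by little beside the gap between genotypes. The gene cest-7 was scarce, at 0.585 and 0.657 CPM in lsm-8 larvae and 1.16 and 1.12 CPM in wild-type larvae. Its call (log2 fold change -0.88, SE 0.26, edgeR adjusted p = 0.0153) was lost without wild-type replicate 1 (0.0531), without lsm-8 replicate 1 (0.0898) and with DESeq2 (0.0708).

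Rises were fewer than falls, and none exceeded 0.56 on the log2 scale. The gene cest-12 had 19.95 and 20.3 CPM in lsm-8 larvae, against 13.6 and 13.7 CPM in wild-type larvae. It was the member with the highest log2 fold change, 0.56 (SE 0.08, edgeR adjusted p = 3.10e-05), and its replicates nearly coincided. The gene cest-19 had 22.8 and 23.7 CPM in lsm-8 larvae and 16.9 and 16.6 CPM in wild-type larvae, a log2 fold change of 0.47 (SE 0.08, edgeR adjusted p = 0.000126). For cest-33 the values were 30.4 and 32.2 CPM in lsm-8 larvae and 25.4 and 24.1 CPM in wild-type larvae, a log2 fold change of 0.34 (SE 0.07, edgeR adjusted p = 0.00139). These 3 calls held in all 12 alternatives. The gene cest-16 had 9.41 and 9.86 CPM in lsm-8 larvae and 7.90 and 7.38 CPM in wild-type larvae. Its rise of 0.33 (SE 0.10, edgeR adjusted p = 0.0188) was lost without wild-type replicate 2 (0.0841) or lsm-8 replicate 2 (0.102).

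Levels between genes were compared per kilobase of the width that the authors list for each gene. In wild type cest-25 was the most abundant member, with a mean of 31.6 CPM per kilobase. It was followed by cest-13 (19.03), cest-32 (17.5), cest-27 (17.3), cest-2.2 (16.9) and cest-9.2 (16.4). In lsm-8 larvae cest-25 was still first, at 22.6 CPM per kilobase, and cest-13 (20.7), cest-33 (17.6), cest-27 (17.2) and cest-32 (16.7) came next. With the fall of cest-2.2 to 8.12 and of cest-9.2 to 9.79 CPM per kilobase, neither was still among them. The least abundant was cest-30, with 21 and 24 counts in the lsm-8 libraries and 7 and 14 counts in the wild-type libraries.

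The 4 most abundant members in wild type did not move alike. The gene cest-25 had 38.0 and 39.9 CPM in lsm-8 larvae, against 53.7 and 55.2 CPM in wild-type larvae. Both genotypes were tight, and it fell by 0.49 on the log2 scale (SE 0.06, edgeR adjusted p = 9.72e-06). The gene cest-13 had 35.0 and 36.1 CPM in lsm-8 larvae and 30.6 and 34.8 CPM in wild-type larvae. The gene cest-32 had 34.8 and 38.2 CPM in lsm-8 larvae and 39.6 and 36.8 CPM in wild-type larvae. The gene cest-27 had 29.0 and 29.9 CPM in lsm-8 larvae and 30.2 and 29.3 CPM in wild-type larvae. Values of cest-32 and cest-27 overlapped between genotypes. The log2 fold changes of cest-13, cest-32 and cest-27 were 0.12 (SE 0.07), -0.06 (SE 0.07) and -0.01 (SE 0.07), with edgeR adjusted p-values of 0.234, 0.548 and 0.910.

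Of the 13 members not called, 9 had a log2 fold change below 0. At or above 10 CPM in wild type 13 of 19 members were called, beside 40.5% of all genes tested at such levels. Below 2 CPM 1 of 6 was called, beside 9.75% of all genes tested. Among the scarce ones, cest-35.2 had 0.341 and 0.948 CPM in lsm-8 larvae and 0.958 and 1.02 CPM in wild-type larvae. Its lsm-8 libraries lay far apart, and the log2 fold change was -1.53 without lsm-8 replicate 2 (edgeR adjusted p = 0.00227) and -0.06 without lsm-8 replicate 1. The genes cest-28 and cest-10 had log2 fold changes of -0.44 (SE 0.17, edgeR adjusted p = 0.0599) and -0.39 (SE 0.21, edgeR adjusted p = 0.202). The gene cest-28 was called without wild-type replicate 2 (-0.66, adjusted p = 0.00245), and cest-10 without lsm-8 replicate 2 (-0.73, adjusted p = 0.0253). The gene cest-13 was called higher without wild-type replicate 2 (0.22, adjusted p = 0.0482). For cest-2.3, cest-6, cest-24, cest-26 and cest-30 the log2 fold change ran from -0.31 to 0.18, and no alternative called them.

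**Figure D2:**
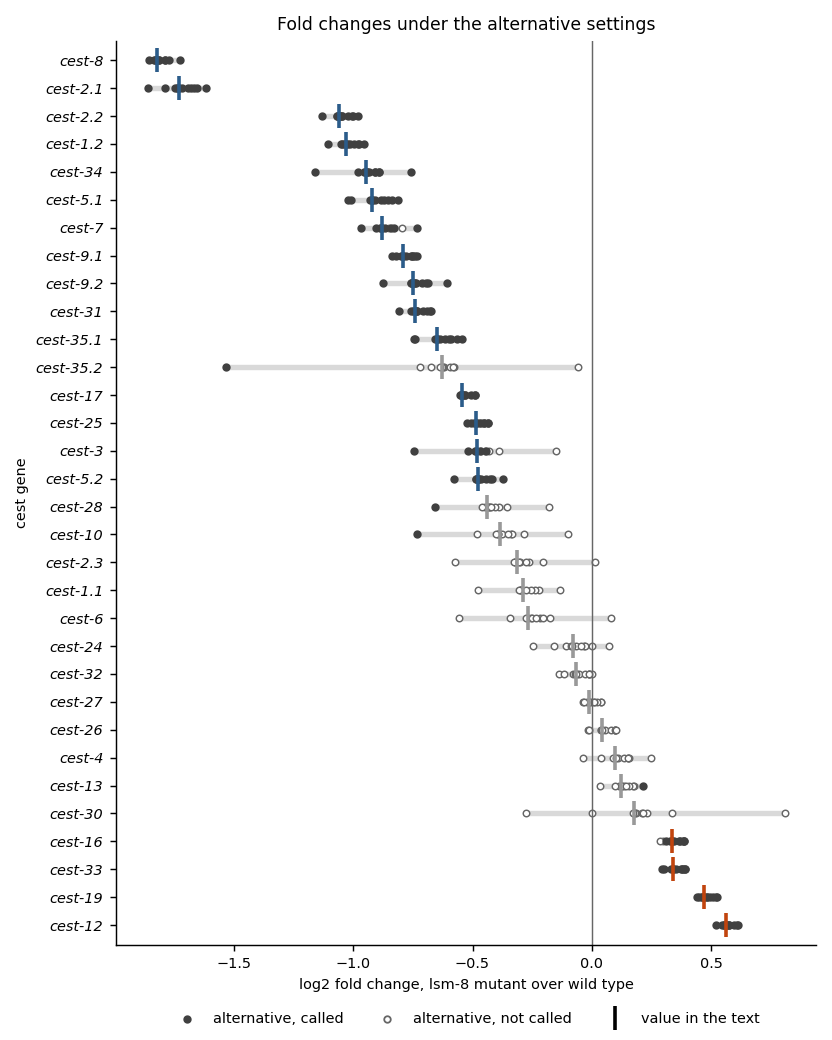
Log2 fold change (lsm-8 over wild type) of each cest gene under the 12 alternatives (dots, filled where called) and as given in the text (vertical ticks, coloured where called). The 6 largest falls and the rises of cest-12, cest-19 and cest-33 are filled throughout, while cest-3 spans -0.75 to -0.15 and cest-35.2 spans -1.53 to -0.06.

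The falls were set out by position after their values had been seen, so this is a description with no test. Members on 1 chromosome with at most 4 other protein-coding genes between neighbours were put into 1 locus, in the gene order of the WBcel235 annotation. This gave 5 loci with 19 members and 13 members on their own. Of the 19 in loci, 13 fell, 0 rose and 6 were not called, with a median log2 fold change of -0.74. Of the 13 on their own, 2 fell, 4 rose and 7 were not called, with a median of 0.04. All 4 rises (cest-12 on chromosome III, cest-33 on V, cest-16 and cest-19 on X) were thus members with no cest neighbour. The shares over all genes tested were 14.8% called lower and 13.5% called higher, with a median log2 fold change of -0.01.

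The locus on X holds cest-8, cest-9.2, cest-9.1, cest-7 and cest-3, and all 5 fell. A locus on V holds cest-1.2, cest-1.1, cest-2.1, cest-2.2 and cest-2.3. Here cest-1.2, cest-2.1 and cest-2.2 fell, while cest-1.1 and cest-2.3, both near 1 CPM or lower in most libraries, were not called. In the run of cest-28, cest-31 and cest-34 on V the last 2 fell, and on IV both cest-5.1 and cest-5.2 fell. In the remaining locus on V, with cest-32, cest-35.2, cest-35.1 and cest-30, cest-35.1 fell. It had 8.32 and 9.40 CPM in lsm-8 larvae, against 14.9 and 12.9 CPM in wild-type larvae, while its neighbour cest-32 was at a similar level in both genotypes.

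**Figure D3:**
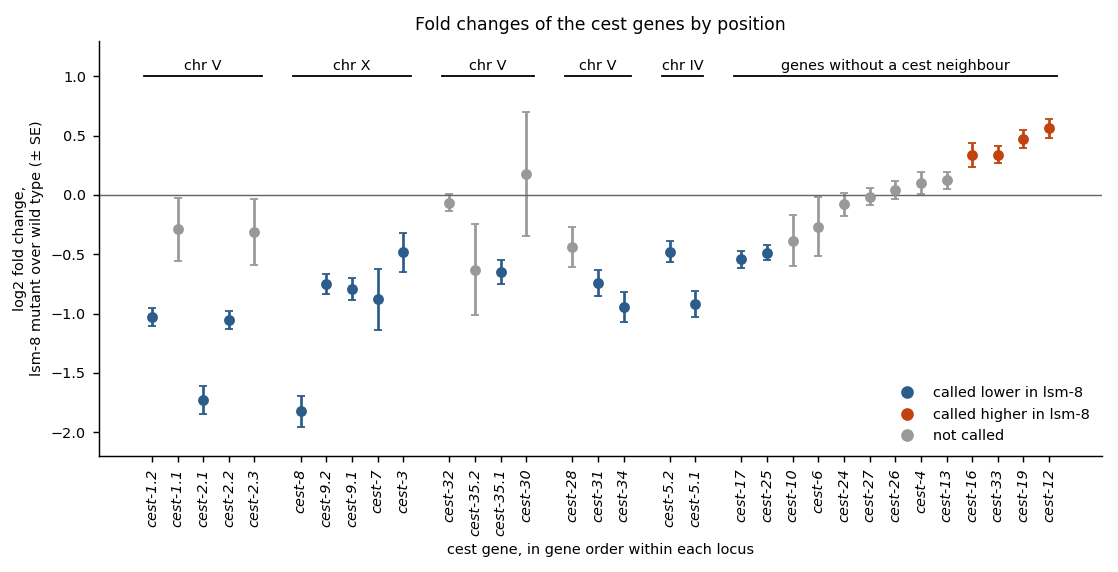
Log2 fold change (lsm-8 over wild type, ± SE, n = 2 libraries of each) of the cest genes, with the 5 loci of neighbouring members on the left and the 13 single members on the right, sorted by value. No member of a locus is called higher, and the 4 called rises lie at the right end.

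Other genes at these loci were also read. Among the 8 other protein-coding genes that lie between members of a locus, 4 were tested and 1 fell. This was C23H4.6 in the locus on X, with 5.18 and 6.74 CPM in lsm-8 larvae and 8.21 and 8.08 CPM in wild-type larvae (log2 fold change -0.45, SE 0.13, edgeR adjusted p = 0.0107). The other tested genes, C52A10.3, srt-67 and srt-70, had at most 0.640 CPM in any library. Their SE were 0.52, 0.54 and 0.33, so the lack of a call says little about them. Of the 10 genes next to the outermost members, 8 were tested, 1 rose and 7 were not called. The one that rose was egl-46, a zinc finger transcription factor gene of neurons (log2 fold change 0.41, SE 0.12, edgeR adjusted p = 0.0153). For these small counts the background is again 14.8% lower and 13.5% higher over all genes tested, and nothing about the loci is read from them.

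By chromosome, V held 15 members (7 fell, 1 rose), X held 9 (5 fell, 2 rose), IV held 5 (2 fell, 0 rose), III held 2 (1 fell, 1 rose) and I held 1 that was not called. Chromosome IV carries lsm-8, where 21.8% of 2658 tested genes were called higher and 9.07% lower. On V, 14.7% of 3802 tested genes were higher and 14.2% lower, and on X 12.9% of 2343 were higher and 15.2% lower. On III, 9.2% of 2380 were higher and 18.4% lower, and on I 9.55% of 2430 were higher and 17.4% lower.

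The family varies in gene width, given here as a description. Median widths were 1936 bases for the members that fell, 2339 bases for those that rose and 1896 bases for those not called, within a family range of 1681 to 2650 bases. Median exon numbers of the longest annotated transcript were 10, 11.5 and 10. A correction of the counts for gene width left the same 19 members called.

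Some reads of members may belong to a neighbour. In the WBcel235 annotation cest-8 overlaps cest-9.2 and cest-9.1 overlaps cest-7, each pair on the same strand, and reads in those stretches cannot be told apart by gene. The gene cest-25 overlaps the protein-coding gene Y71H2AM.12 on the same strand, which had under 1 CPM in every library. Protein-coding genes on the other strand overlap 5 members: cest-2.3, cest-5.2, cest-24, cest-25 and cest-32. With noncoding genes included, 12 members have an overlap on the other strand and 12 on the same strand. The gene opposite cest-25 is cox-6B. This respiratory chain gene had 341 and 307 CPM in lsm-8 larvae and 384 and 382 CPM in wild-type larvae, and it fell by 0.24 on the log2 scale (SE 0.06, edgeR adjusted p = 0.00507). How the counting treated strand is not stated by the labels, and the part of cox-6B reads in the fall of cest-25 was not tested. How far reads of similar cest copies were split between them was not tested either.

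Genes related by protein family, pathway or organelle were taken as lists and are given by their counts. The background is that of the members: 13.5% of all genes tested were called higher and 14.8% lower. At or above 10 CPM in wild type, 40.5% of all genes tested were called in either direction. Among 8 related esterase-type genes without the cest name, 2 rose, 3 fell and 3 were not called, with a median log2 fold change of 0.02. The gut esterase gene ges-1 had 29.6 and 34.5 CPM in lsm-8 larvae and 25.5 and 24.9 CPM in wild-type larvae (0.35, SE 0.08, edgeR adjusted p = 0.00248). That call was lost without lsm-8 replicate 2 (adjusted p = 0.0711). The acetylcholinesterase gene ace-3 rose by 0.28 (SE 0.06). The neuroligin gene nlg-1, whose product has the esterase fold and acts at synapses, fell by 0.42 on the log2 scale (SE 0.06). The gene nceh-1, a relative of neutral cholesterol ester hydrolases, had 3.23 and 3.37 CPM in lsm-8 larvae and 13.8 and 13.3 CPM in wild-type larvae, a log2 fold change of -2.04 (SE 0.11, edgeR adjusted p = 8.08e-11).

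Among genes that shorten and activate the ascaroside side chains more rose than fell. Of 9, 5 rose, 2 fell and 2 were not called, beside 13.5% higher and 14.8% lower over all genes tested. Their median log2 fold change was 0.30. The acyl-CoA oxidase gene acox-3 had 80.6 and 90.9 CPM in lsm-8 larvae and 43.2 and 45.7 CPM in wild-type larvae (0.95, SE 0.07, edgeR adjusted p = 5.25e-09). The gene acox-1.1, an acyl-CoA oxidase of the first step of chain shortening, had 125 CPM in each lsm-8 library and 84.2 and 84.1 CPM in wild-type larvae (0.57, SE 0.06, edgeR adjusted p = 3.45e-07). Its relatives acox-1.4 (-0.25, SE 0.07, edgeR adjusted p = 0.0126) and acox-1.3 (-0.22, SE 0.07, edgeR adjusted p = 0.0284) fell. The call of acox-1.3 was lost in 7 alternatives (adjusted p up to 0.242) and that of acox-1.4 without lsm-8 replicate 2 (0.156).

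Of 16 gut granule genes, 8 fell, 2 rose and 6 were not called, beside 14.8% lower and 13.5% higher over all genes tested. Their median log2 fold change was -0.18. Those with the largest falls were wht-2 (-0.62, SE 0.08) and pgp-2 (-0.57, SE 0.06), both ABC transporter genes, with edgeR adjusted p-values of 9.16e-06 and 1.48e-06. The zinc transporter gene ttm-1 rose by 0.47 (SE 0.07, edgeR adjusted p = 4.36e-05). The gene glo-1, which encodes the Rab GTPase needed for gut granules, rose by 0.34 (SE 0.12, edgeR adjusted p = 0.0364), a call lost in 5 alternatives (adjusted p up to 0.233).

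**Figure D4:**
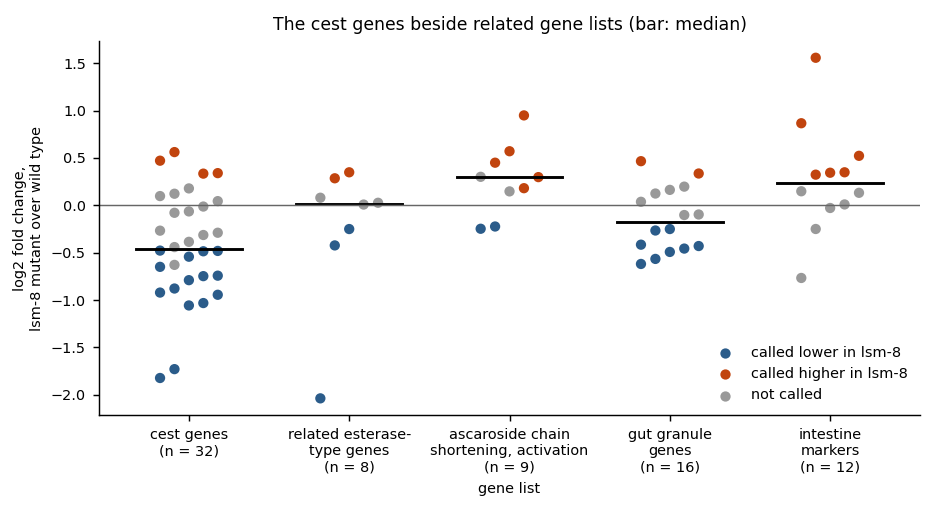
Log2 fold change (lsm-8 over wild type) of each tested gene in the cest family and in 4 other lists, coloured by call, with the median as a bar. The cest median lies at -0.46 and the intestine marker median at 0.24; ges-1 is in both the esterase-type and the intestine lists.

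Markers of the intestine, where ges-1 and the gut granules are found, did not move as one. Of 12 markers, 6 rose, 0 were called lower and 6 were not called, beside 13.5% higher and 14.8% lower over all genes tested. Their median log2 fold change was 0.24. The largest values of either sign are those of elt-2 and mtl-2. The gene elt-2, a GATA factor of the gut, had 18.3 and 18.03 CPM in lsm-8 larvae and 5.65 and 6.70 CPM in wild-type larvae (log2 fold change 1.56, SE 0.10, edgeR adjusted p = 1.05e-09). The metallothionein gene mtl-2 had 35.8 and 25.9 CPM in lsm-8 larvae and 55.6 and 49.4 CPM in wild-type larvae. Both its lsm-8 values lay below both wild-type values, but the log2 fold change of -0.77 (SE 0.19) was not called (edgeR adjusted p = 0.056). The same held for elt-7, another gut GATA factor gene, at -0.25 (SE 0.09, edgeR adjusted p = 0.0551). The protease gene cpr-1 rose by 0.87 (SE 0.06, edgeR adjusted p = 2.42e-09).

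The summed level of the intestine markers was 12010 and 11430 CPM in lsm-8 larvae, against 10400 and 10490 CPM in wild-type larvae. Most of that sum is the protease gene asp-1, which was not called (log2 fold change 0.13, SE 0.06, edgeR adjusted p = 0.133). Without it the sum was 4978 and 4774 CPM in lsm-8 larvae, against 4171 and 4228 CPM in wild-type larvae. Markers of muscle, pharynx, neurons, epidermis and germ cells numbered 34, of which 32 were tested, 12 rose and 0 were called lower. Those that rose were 3 of 7 in body wall muscle, 3 of 6 in pharynx and 3 of 8 in neurons. In epidermis 2 of 6 rose, and in germ cells 1 of 5. Over all genes tested 13.5% were called higher and 14.8% lower, and at or above 10 CPM in wild type 40.5% were called. The part of tissue makeup in the cest values was not tested.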

How the data were processed

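Total RNA of sorted L1 larvae was sequenced as single reads of 50 bases from stranded libraries, per the labels' protocols. The deposited table holds raw counts per gene and a width per gene in bases. A second table that the authors deposited holds log2 values, which equal the log2 of the count scaled to the mean library total plus 8 (within 1e-12, found from the values). The submitters' processing notes list Bowtie and edgeR 3.24.0 as tools and ce10 as the build. For the counter, the annotation and strand handling they were silent (not given in the sources used here).

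Here the counts of all genes were tested with edgeR 4.0.16 in R 4.3.3 (TMM, filterByExpr, robust glmQLFit and glmQLFTest), with Benjamini-Hochberg adjustment over the genes tested. Standard errors come from the F statistic. Members and lists were chosen with earlier results of these data known. Named genes were the 6 largest called rises (4 existed) and falls, the 4 most abundant members, members tied to metabolite assembly, and the 2 largest called rises and falls among the esterase-type, ascaroside chain and gut granule genes. Other members, genes at the loci and the single intestine markers were named after their values were seen. Names came from the WormBase name table and the WBcel235 annotation, which gave names to 19182 genes. That build is not the authors', so it served only for names, chromosomes, gene order, overlaps and exon numbers. Alternatives used limma 3.58.1 and DESeq2 1.42.0 as well. The tests were also run on counts drawn at random with known changes. Those draws treated the libraries as independent, so they cannot show how the tests behave if the libraries of a group are technical replicates.

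The genotypes share the replicate numbers 1 and 2, but no label says that a number marks a shared batch.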

Additional observations from a re-analysis of the deposited data

How the results depend on the processing

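The number of cest members called was 17 to 20 over the 12 alternatives, beside 19, and the numbers of members called higher and lower stayed within 1.5 times their values, as did the count of all genes called (3655 to 4827, beside 4737). Of 380 fold changes of members under an alternative, 365 kept their side of the threshold, 11 lost a call and 4 gained one. The calls lost were those of cest-3, cest-7 and cest-16, and the calls gained were those of cest-10, cest-13, cest-28 and cest-35.2. The other calls of members held in all 12. With library totals alone 60.5% of all calls were higher, with the deposited log2 values 60.7% and with upper quartile scaling 56.6%, against 47.7% with TMM. The median of all genes then moved by less than 0.1 on the log2 scale. The median of the members ranged from -0.55 without wild-type replicate 2 to -0.37 with the deposited log2 values. With the replicate number as a block, 18 members were called. The deviations of same-numbered libraries had a correlation of -0.056 over genes. With 2 libraries per group both pairs must give the same value, so it cannot decide whether a number marks a shared batch. Where a library was left out, the lone library of its genotype was assumed to vary like the others. Depth limits the 6 members below 2 CPM in wild type most.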
